A study of Caenorhabditis elegans with 12 samples.

Results

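The sodium pump genes of the nematode Caenorhabditis elegans were followed through an RNA-seq experiment on whole adults. The members are 8 of the 46904 genes in the deposited table, found by gene name and WormBase identifier. Of these, 5 belong to the alpha-subunit family of the Na,K-ATPase: eat-6 (WBGene00001137), catp-1 (WBGene00013672), catp-2 (WBGene00015338), catp-3 (WBGene00015660) and catp-4 (WBGene00007248). The other 3 are the beta-subunit genes nkb-1 (WBGene00007646), nkb-2 (WBGene00008074) and nkb-3 (WBGene00010117).

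The experiment had 4 groups of 3 libraries, each from pooled day 1 adults held for 4 h without bacterial food: pmk-1(km25) animals in 100 mM NaCl, pmk-1(km25) animals in 100 mM KCl, N2 wild-type animals in 100 mM NaCl and N2 animals in 100 mM KCl. The allele km25 affects pmk-1, which encodes a p38 mitogen-activated protein kinase of innate immunity and stress signalling. The study asked which genes respond to low potassium and which of them depend on pmk-1. Sodium and potassium change together between the salts, so an effect of sodium cannot be told apart from one of potassium.

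The sodium pump spends ATP to carry sodium out of the cell and potassium in, and so maintains the gradients on which electrical excitability and much secondary transport depend. Its alpha subunit binds ATP and the ions, and its beta subunit is needed for the folding of the alpha subunit and its delivery to the cell surface. In C. elegans, eat-6 takes its name from the feeding defect of its mutants, whose pharyngeal muscle works poorly, and the beta subunit NKB-1 acts with EAT-6 at the neuromuscular junction. CATP-1 is known from the responses of mutants to nicotinic drugs.

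Library totals lay between 8931797 and 11445709 counts. Values below are CPM, each library's counts scaled to a common total by TMM, a correction for library composition. Reads of pmk-1 remained in mutant libraries, at 21.9 to 26.4 CPM in pmk-1 NaCl and 21.3 to 22.8 CPM in pmk-1 KCl, against 24.2 to 38.7 CPM in wild-type NaCl and 29.3 to 35.9 CPM in wild-type KCl. Mutant animals had less of it in KCl (log2 -0.60 ± 0.18 SE, edgeR adjusted p = 0.0326), while in NaCl the difference of -0.45 ± 0.18 missed the threshold (edgeR adjusted p = 0.0809). The labels do not say which bases km25 removes, so these reads are no check of the allele. The strains also differed in gamete and embryo content. The summed level of 46 sperm markers was 1424 to 5366 CPM in pmk-1 libraries and 14.3 to 236.1 CPM in wild-type libraries, and that of 20 embryo markers was 134.0 to 222.1 CPM in pmk-1 and 315.3 to 566.8 CPM in wild type. The first replicate had the highest sperm marker sum in each of the 4 groups, and both first pmk-1 libraries stood apart from their group in several members.

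The members lie on 5 chromosomes in the WBcel235 annotation. On chromosome V are catp-2 (4934706 to 4939085, plus strand), catp-3 (8076012 to 8079916, plus strand) and eat-6 (13126414 to 13129995, minus strand). On chromosome I are nkb-1 (9431249 to 9433828, plus strand) and catp-1 (14436810 to 14451889, minus strand). The rest are catp-4 on chromosome II (14593581 to 14597657, plus strand), nkb-2 on chromosome IV (10590925 to 10593042, plus strand) and nkb-3 on chromosome X (13765359 to 13770558, minus strand). The neighbours of catp-3 are the receptor genes str-144 and str-131, with at most 11 and 0 counts in any library. The only exons of a protein-coding gene that overlap a member are those of C43F9.7, opposite nkb-2 over 26 bp, with at most 1 count in any library.

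catp-3, an alpha-family gene, had the widest range of CPM of any member. It stood at 234, 89.5 and 46.01 CPM in the 3 pmk-1 NaCl libraries, against 13.3, 3.86 and 1.14 CPM in the 3 pmk-1 KCl libraries. In wild type it stood at 814, 784 and 726 CPM in NaCl and at 79.8, 131.6 and 159.0 CPM in KCl. The salt groups did not overlap in either genotype, and the NaCl animals were higher in both. The 4 groups thus ran in the order wild-type NaCl (774.7 ± 44.8 CPM, SD, n = 3), wild-type KCl (123.5 ± 40.2 CPM), pmk-1 NaCl (123.2 ± 98.4 CPM) and pmk-1 KCl (6.08 ± 6.36 CPM). The middle pair did not differ beyond their spread, since the pmk-1 NaCl values lay on both sides of those of wild-type KCl.

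**Figure D1:**
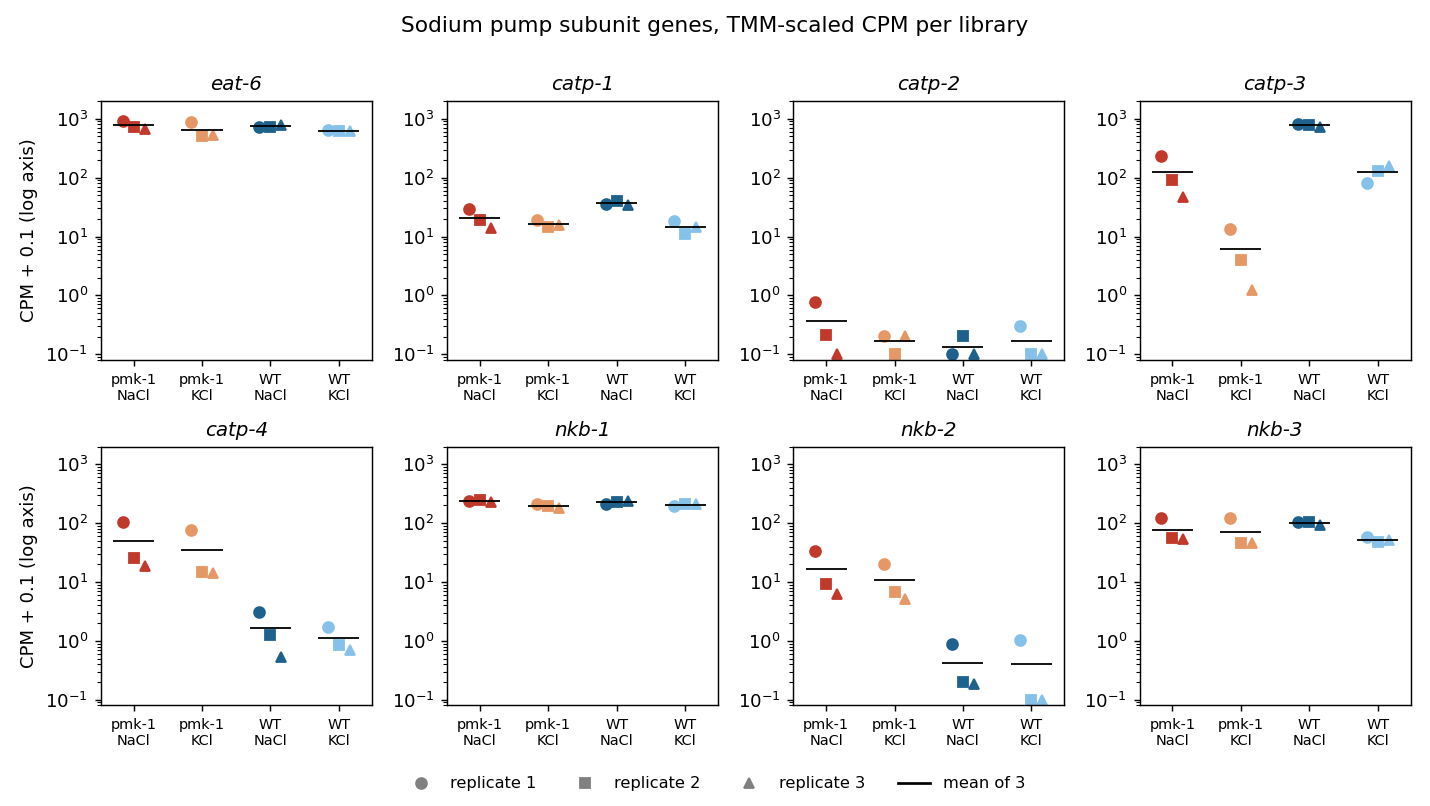
CPM of each sodium pump gene in each of the 12 libraries, on a log axis with 0.1 CPM added so that libraries at 0 can be drawn, where symbols give the replicate and lines the mean of 3. The catp-3 points span from 1.14 CPM in a pmk-1 KCl library to 814 CPM in a wild-type NaCl library, while all nkb-1 points lie between 181 and 246 CPM, and catp-4 and nkb-2 are high only in the pmk-1 groups.

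In pmk-1 animals catp-3 rose by 4.34 ± 0.74 on the log2 scale in NaCl against KCl, or 20.3-fold (edgeR quasi-likelihood test, Benjamini-Hochberg adjusted p = 0.00942, higher in 3 of 3 libraries). The ± after a log2 value is the standard error throughout. It was the only one of the 7 members tested to pass in this comparison, where 2.71% of all 13353 genes tested passed. Without the first pmk-1 KCl library the change was 5.59 (adjusted p = 0.00411), without the second 4.06 (0.0655, no longer a call) and without the first pmk-1 NaCl library 3.42 (0.0169). When only the 6 libraries of the mutant were fitted the value was 4.32 (edgeR adjusted p = 0.170), which ended the call.

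In wild type the catp-3 log2 fold change was 2.65 ± 0.65, or 6.27-fold, and did not pass in edgeR (adjusted p = 0.202). Blocking on the replicate number gave 2.55 ± 0.52, which passed (edgeR adjusted p = 0.0453). It also passed in the fit of the 6 wild-type libraries alone (2.67 ± 0.22, edgeR adjusted p = 0.00145), without the first replicates (2.39 ± 0.28, 0.00160) and without the first pmk-1 NaCl library (2.66, 0.0435). It did not pass in DESeq2 (2.64 ± 0.80, adjusted p = 0.0897). Leaving out any other single library gave no call either (edgeR adjusted p up to 0.778). The larger log2 change in the mutant was not shown to differ from that in wild type. The difference of the changes was 1.69 ± 0.92 (edgeR interaction test, adjusted p = 1.0, unadjusted p = 0.0930).

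The mutant had less catp-3 RNA than wild type in each salt. In NaCl the log2 difference was -2.65 ± 0.65 (edgeR adjusted p = 0.0129), a level 0.159 times that of wild type. In KCl it was -4.35 ± 0.74 (edgeR adjusted p = 0.00383), a level 0.0492 times that of wild type. No pmk-1 library reached a wild-type library of the same salt. Without the first pmk-1 library of the salt, the differences were -3.55 in NaCl and -5.60 in KCl (edgeR adjusted p = 0.00646 and 0.00280). Both calls were kept in each of the 12 fits that left out 1 library and in all other alternatives, with log2 values from -3.55 to -2.28 in NaCl and from -5.79 to -3.84 in KCl. In bulk RNA, fewer cells that express a gene cannot be told apart from less RNA per cell, and the embryo markers were also lower in pmk-1. The part of embryo content in the catp-3 difference was not tested.

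catp-1, the alpha-family gene known from nicotinic drug responses, was a low-level gene whose wild-type NaCl libraries stood apart. Its values were 29.4, 18.7 and 13.6 CPM in pmk-1 NaCl, against 18.8, 14.3 and 15.7 CPM in pmk-1 KCl. In wild type they were 35.5, 40.4 and 34.7 CPM in NaCl, against 18.2, 10.96 and 14.5 CPM in KCl. The salts overlapped in the mutant and did not in wild type, and wild-type NaCl was the highest of the 4 groups. The other 3 groups overlapped one another.

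In wild type the catp-1 salt difference was 1.34 ± 0.27 on the log2 scale, or 2.53-fold, and missed the threshold in edgeR (adjusted p = 0.110). It passed with the replicate number as a block (1.38 ± 0.22, edgeR adjusted p = 0.0146), in DESeq2 (adjusted p = 0.00129), without the first replicates (1.57 ± 0.21, edgeR adjusted p = 0.00310) and without the first pmk-1 NaCl library (1.36, 0.0215). In pmk-1 it was 0.34 ± 0.27 (edgeR adjusted p = 0.668). The salt difference in pmk-1 minus that in wild type was -1.01 ± 0.38 (edgeR interaction test, adjusted p = 0.781, unadjusted p = 0.0234), and without the first replicates -1.52 ± 0.29 (edgeR adjusted p = 0.0398).

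In NaCl, catp-1 was lower in pmk-1 than in wild type, by a log2 difference of -0.84 ± 0.27 (edgeR adjusted p = 0.0397), with no overlap of the groups. This call was close to the threshold. It was lost without wild-type NaCl replicate 1, 2 or 3 (edgeR adjusted p = 0.0630, 0.1155 and 0.0825), without pmk-1 NaCl replicate 2 or 3 (0.0906 and 0.0849) and in a fit of the 6 NaCl libraries alone (0.0750). In KCl the genotypes overlapped, with a log2 difference of 0.16 ± 0.27 (edgeR adjusted p = 0.676).

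eat-6, the alpha gene needed for pharyngeal and neuromuscular function, was the most abundant member in CPM in the groups other than wild-type NaCl. Its values were 904, 739 and 683 CPM in pmk-1 NaCl, against 896, 503 and 522 CPM in pmk-1 KCl. In wild type they were 738, 720.5 and 769.8 CPM in NaCl, against 647, 613 and 609 CPM in KCl. All 3 wild-type NaCl libraries were above all 3 wild-type KCl libraries, by a small margin. In the mutant the salts overlapped through the first KCl library.

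The eat-6 salt difference was 0.28 ± 0.20 on the log2 scale in pmk-1 and 0.25 ± 0.20 in wild type (edgeR adjusted p = 0.616 and 1.0), and their difference was 0.02 ± 0.28. Without the first pmk-1 KCl library the mutant value was 0.60 ± 0.13 and passed (edgeR adjusted p = 0.0333). Both first pmk-1 libraries, which had the highest eat-6 levels of the 12, also had the highest summed level of 12 body wall muscle markers. That sum was 13070 CPM in the first pmk-1 NaCl library and 13040 CPM in the first pmk-1 KCl library, against 4056 to 10720 CPM in the other 10. This was not particular to muscle. Both libraries also stood above the other 10 in the summed epidermis, pharynx and sperm markers. In the neuron markers the margin was small, at 510.5 CPM (NaCl) and 522.6 CPM (KCl), against 509.2 CPM in the second pmk-1 NaCl library. The first pmk-1 libraries did not both stand above the other 10 in the intestine, oocyte, embryo and excretory canal cell markers. The part of muscle or other tissue content in the eat-6 level was not tested. Between the genotypes eat-6 differed by 0.06 ± 0.20 in NaCl and 0.04 ± 0.20 in KCl (edgeR adjusted p = 0.824 and 0.895), with -0.10 and -0.22 without the first replicates.

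catp-4, another alpha-family gene, and the beta gene nkb-2 were set apart by genotype. catp-4 stood at 103, 25.2 and 18.6 CPM in pmk-1 NaCl and at 76.2, 14.6 and 14.1 CPM in pmk-1 KCl, against 3.01, 1.14 and 0.439 CPM in wild-type NaCl and 1.64, 0.762 and 0.601 CPM in wild-type KCl. nkb-2 stood at 33.7, 9.28 and 6.07 CPM in pmk-1 NaCl and at 20.0, 6.68 and 5.08 CPM in pmk-1 KCl, against 0.779, 0.104 and 0.0880 CPM in wild-type NaCl. In wild-type KCl nkb-2 had 9 counts (0.923 CPM) in the first library and 0 in the others. A count of 0 allows up to 3 counts, which is 0.263 to 0.364 CPM in these libraries. The lowest pmk-1 library was above the highest wild-type library for both genes, and within each group the first replicate was the highest.

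Both genes passed the filter on low counts through the pmk-1 libraries, where they are high. Their p-values between the strains, and the fits in which they passed, are thus a description only. catp-4 was higher in pmk-1 by 5.03 ± 0.99 on the log2 scale in NaCl and by 5.11 ± 1.01 in KCl (edgeR adjusted p = 0.00581 and 0.00617). For nkb-2 the log2 differences were 5.67 ± 1.197 and 5.07 ± 1.19 (edgeR adjusted p = 0.00726 and 0.0114). These fitted folds rest on very few wild-type counts, 0 to 27 per library. The NaCl call for nkb-2 was kept in all fits without 1 library, and the KCl call was lost without wild-type KCl replicate 3 (log2 4.52, edgeR adjusted p = 0.0536). Without the first library of the pmk-1 group compared, catp-4 stood at 3.84 in NaCl and 3.83 in KCl, and nkb-2 at 4.56 and 4.23, and all 4 values passed (edgeR adjusted p from 0.0131 to 0.0282). Without the first library of the wild-type group compared, catp-4 stood at 5.95 in NaCl and 5.64 in KCl, and nkb-2 at 7.23 in NaCl, and those passed too. In KCl that left nkb-2 with no wild-type count, so that no finite fold exists.

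The difference of catp-4 and nkb-2 between the strains moved with the sperm markers. Of 48 sperm markers listed, 46 were in the table and 40 were tested. In NaCl 39 of these were higher in pmk-1 and 0 lower, with a median log2 difference of 5.06, and in KCl 37 were higher and 0 lower, with a median of 5.13. The medians over all genes tested were 0.06 and 0.02, and 16.7% and 15.2% of all genes were called higher. In wild type the 46 markers together summed to only 14.3 to 236.1 CPM. Those tested thus passed the low-count filter largely through the pmk-1 libraries, where they are high, and their counts and medians are a description only. Of the 46 markers, 0 in pmk-1 NaCl and 1 in pmk-1 KCl had no count in any library of the group, against 2 in wild-type NaCl and 3 in wild-type KCl. The catp-4 level was between 0.964% and 2.24% of the summed sperm marker CPM in the 6 pmk-1 libraries, and between 1.09% and 4.23% in the 6 wild-type libraries. For nkb-2 the same percentage was 0.356 to 0.627 in pmk-1, and 0 to 0.615 in wild type. Across the 12 libraries the log2 levels of catp-4 and nkb-2 had a Pearson r of 0.994, a description of 2 strains and their libraries. The part of sperm content in these differences was not tested.

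**Figure D2:**
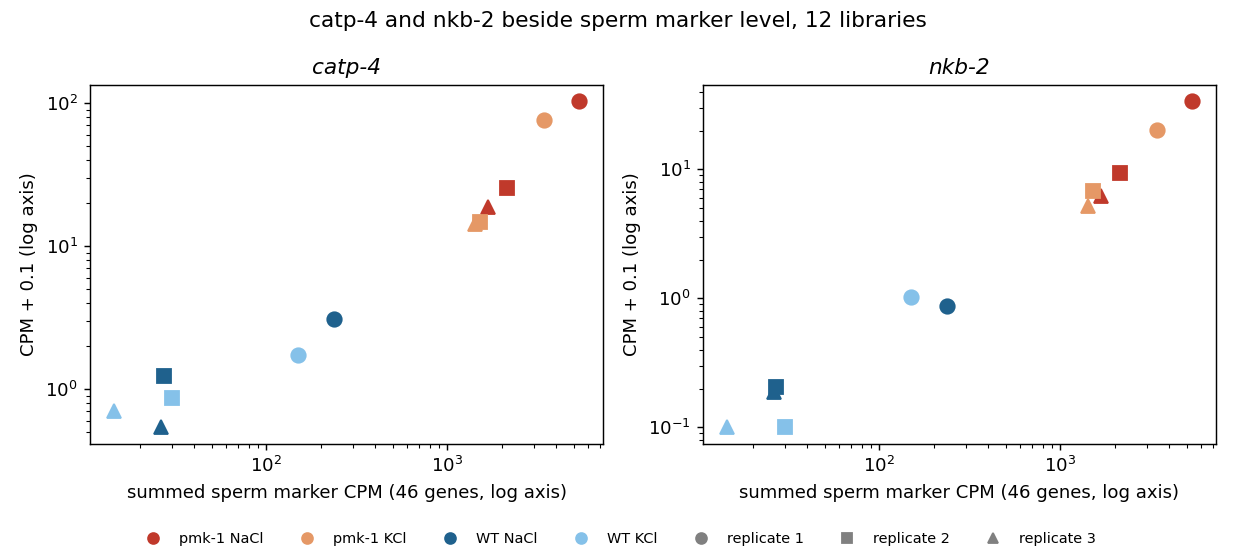
CPM of catp-4 and of nkb-2, with 0.1 CPM added, against the summed CPM of 46 sperm markers in each of the 12 libraries, both axes on a log scale, with colours for groups and symbols for replicates. Both genes and the markers are high together in the pmk-1 libraries, where the first replicates (3409 and 5366 CPM of sperm markers) carry the highest values, and low together in wild type.

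Neither gene passed between the salts. In pmk-1 the log2 differences were 0.49 ± 0.79 for catp-4 and 0.63 ± 0.88 for nkb-2 (edgeR adjusted p = 0.814 and 0.797). In wild type they were 0.57 ± 1.08 and 0.03 ± 1.495 (edgeR adjusted p = 1.0 for both). NaCl was above KCl in all 3 same-numbered pmk-1 pairs for both genes. Blocking on replicate number gave 0.53 ± 0.21 for catp-4 and 0.50 ± 0.33 for nkb-2 in pmk-1, with smaller errors and no call (edgeR adjusted p = 0.177 and 0.418).

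catp-2, the last of the alpha family, was close to undetected. It had 6, 1 and 0 counts in pmk-1 NaCl and 1, 0 and 1 in pmk-1 KCl, against 0, 1 and 0 in wild-type NaCl and 2, 0 and 0 in wild-type KCl. It did not pass the filter on low counts and has no test.

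nkb-1, the beta gene that acts with eat-6, was the steadiest member. It stood at 234.8, 246 and 229 CPM in pmk-1 NaCl, against 209.7, 194 and 181 CPM in pmk-1 KCl. In wild type it stood at 212, 227 and 239 CPM in NaCl, against 198, 208 and 212 CPM in KCl. The mutant salt groups did not overlap, while the wild-type groups overlapped slightly. The log2 salt difference was 0.28 ± 0.09 in pmk-1 and 0.13 ± 0.09 in wild type, and neither passed (edgeR adjusted p = 0.162 and 1.0). Between the genotypes it was 0.07 ± 0.09 in NaCl and -0.08 ± 0.09 in KCl (edgeR adjusted p = 0.577 and 0.522).

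nkb-3, the remaining beta gene, differed between the salts in the wild-type libraries. Its values were 121, 55.9 and 54.1 CPM in pmk-1 NaCl, against 122, 45.9 and 45.5 CPM in pmk-1 KCl. In wild type they were 106, 103.5 and 93.4 CPM in NaCl, against 58.2, 48.0 and 51.6 CPM in KCl. All wild-type NaCl libraries were above all wild-type KCl libraries. In the mutant the first library of each salt stood above wild-type NaCl and the other 4 libraries lay near wild-type KCl.

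The nkb-3 salt difference in wild type was 0.94 ± 0.39 on the log2 scale, or 1.92-fold, and did not pass in the fit of all 12 libraries (edgeR adjusted p = 1.0, unadjusted p = 0.0326). It passed when only the 6 wild-type libraries were fitted (0.95 ± 0.10, edgeR adjusted p = 0.00258) and when first replicates were left out (0.997 ± 0.104, 8.83e-04). Blocking on replicate number left it short (0.96 ± 0.24, edgeR adjusted p = 0.141). In pmk-1 it was 0.12 ± 0.38 (edgeR adjusted p = 0.908), and 0.21 ± 0.11 without the first replicates (0.264). The salt difference in pmk-1 minus that in wild type was -0.82 ± 0.54 (edgeR adjusted p = 1.0), and it passed without the first replicates (-0.78 ± 0.15, 0.0368). Between the genotypes the log2 difference was -0.39 ± 0.38 in NaCl (edgeR adjusted p = 0.452), or -0.87 ± 0.10 without the first replicates (7.44e-05), and 0.44 ± 0.39 in KCl (0.422).

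Counted over the 7 members tested, wild type had 0 calls between the salts in edgeR, against 0.187% of all genes. At an unadjusted p under 0.05 there were 3 members (catp-1, catp-3 and nkb-3), against 570 of all 13353 genes, and DESeq2 called 1, catp-1 (0.989% of all genes). The count was 2 under blocking on replicate number (0.981% of all genes) and 3 when first replicates were left out (1.02% of all genes). pmk-1 against wild type gave 4 calls in NaCl, catp-4 and nkb-2 higher and catp-1 and catp-3 lower, where 26.8% of all genes were called, 16.7% higher and 10.1% lower. In KCl it gave 3, catp-4 and nkb-2 higher and catp-3 lower, where 24.4% of all genes were called, 15.2% higher and 9.18% lower. In both salts catp-4 and nkb-2 had entered the test only through the pmk-1 libraries, where they are high, so their calls say nothing about the members as a group. Of the other 5 members, 2 were called in NaCl (catp-1 and catp-3) and 1 in KCl (catp-3). The 3 values of one group lay all beyond those of the other for 2 of the 7 members between the salts in pmk-1 (16.1% of all genes) and for 4 in wild type (12.5%), and between the strains, catp-4 and nkb-2 included, for 4 in NaCl (51.3%) and 3 in KCl (47.7%). The interaction gave 0 calls in edgeR, against 0.0374% of all genes. There, 1 member (catp-1) had an unadjusted p under 0.05, against 669 of all 13353 genes, DESeq2 called 0 (0.809% of all genes), and the fit without the first replicates called 2, catp-1 and nkb-3 (0.735% of all genes).

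**Figure D3:**
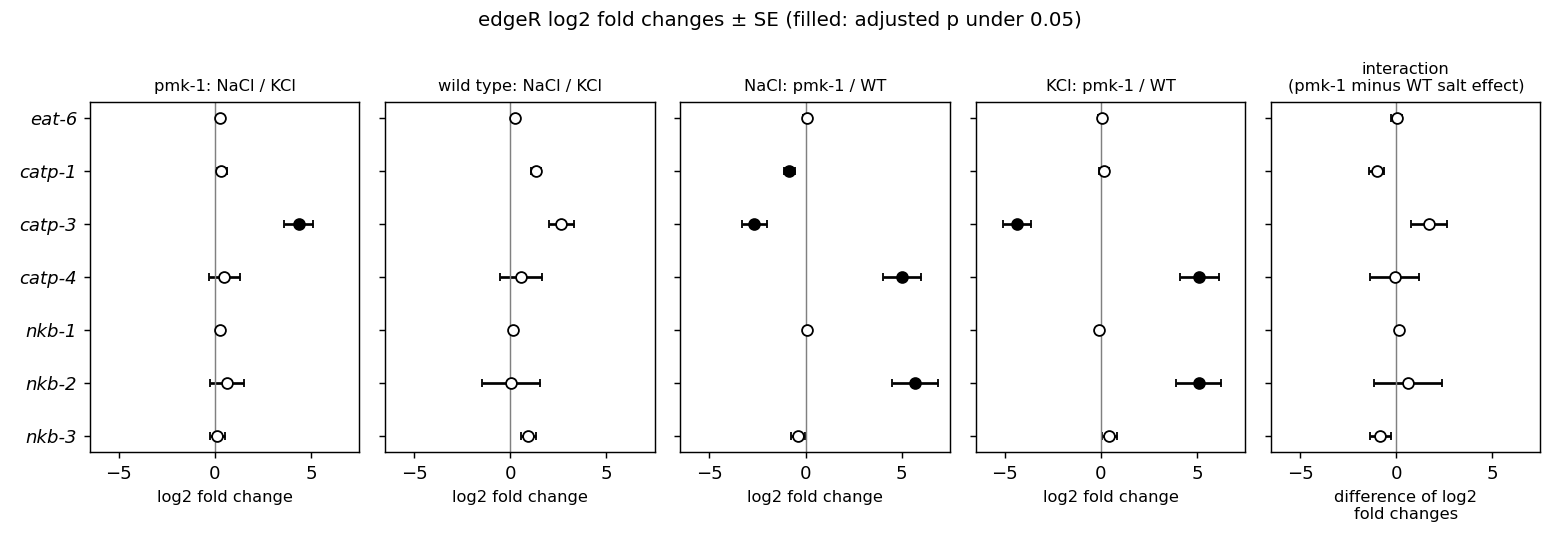
Log2 fold change of the 7 members tested in each comparison (horizontal axis), with the standard error of the edgeR fit as bars and filled points at an adjusted p under 0.05. catp-3 is to the right in both salt comparisons and to the left in both genotype comparisons, catp-4 and nkb-2 lie near 5 in both genotype comparisons, and eat-6 and nkb-1 lie near 0 in all panels.

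Levels of different genes can be set side by side only per length, here as CPM per kb of merged exons. On that scale eat-6 had 240.0 ± 35.5 in pmk-1 NaCl, 198 ± 68.6 in pmk-1 KCl, 229.9 ± 7.74 in wild-type NaCl and 193 ± 6.41 in wild-type KCl (SD, n = 3). catp-3 had 35.8 ± 28.6 CPM per kb in pmk-1 NaCl, 1.77 ± 1.85 in pmk-1 KCl, 225 ± 12.997 in wild-type NaCl and 35.8 ± 11.7 in wild-type KCl. Among 13348 genes with a length, catp-3 thus stood at the 96.1st percentile of level in wild-type NaCl and at the 16.04th in pmk-1 KCl. The alpha genes catp-1 and catp-4 stayed at or under 15.6 CPM per kb in all group means. Among the beta genes nkb-1 lay between 92.8 and 112.7 CPM per kb and nkb-3 between 30.9 and 59.3. nkb-2 had 13.4 and 8.67 CPM per kb in pmk-1 NaCl and pmk-1 KCl, against 0.265 and 0.252 in wild-type NaCl and wild-type KCl.

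The makeup of the alpha RNA therefore differed between the groups. Of the summed alpha level, eat-6 made up 82.5 ± 9.46% in pmk-1 NaCl, against 92.7 ± 2.97% in pmk-1 KCl, and 49.4 ± 2.19% in wild-type NaCl, against 82.8 ± 4.31% in wild-type KCl. catp-3 made up 10.96 ± 5.98% in pmk-1 NaCl, against 0.703 ± 0.523% in pmk-1 KCl, and 48.3 ± 2.05% in wild-type NaCl, against 15.3 ± 4.72% in wild-type KCl. In wild-type NaCl animals the catp-3 level was 1.03, 1.02 and 0.884 times the eat-6 level of the same library, so the 2 genes were about equal there. catp-4 made up 4.67 ± 3.30% in pmk-1 NaCl and 4.42 ± 2.95% in pmk-1 KCl, and at most 0.229% in any wild-type library. Shares taken with the longest transcript in place of merged exons moved by less than 1 SD in all 32 group means.

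**Figure D4:**
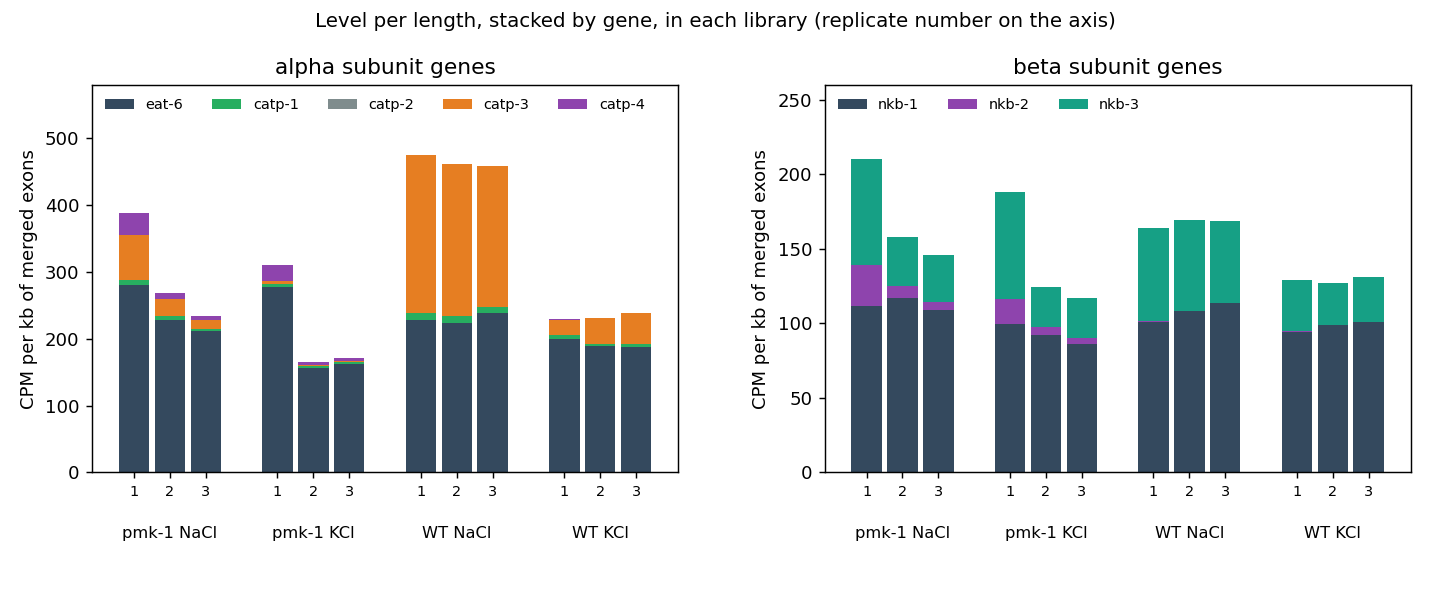
Level per length (CPM per kb of merged exons) in each library, stacked by gene, for the 5 alpha genes (left) and the 3 beta genes (right). The wild-type NaCl bars of the alpha genes are near 465 CPM per kb, with about equal parts of eat-6 and catp-3, and the wild-type KCl bars are near 233 CPM per kb, most of it eat-6.

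The summed alpha level was 389, 268 and 234 CPM per kb in pmk-1 NaCl, against 311, 165 and 171 in pmk-1 KCl. In wild type it was 475, 462 and 459 CPM per kb in NaCl, against 229, 231 and 239 in KCl, a ratio of means of 2.00. The wild-type salts were far apart relative to their spread, and the mutant salts overlapped through the first KCl library. The summed beta level was 211, 158 and 146 CPM per kb in pmk-1 NaCl, against 188, 125 and 117 in pmk-1 KCl. In wild type it was 164, 169 and 169 CPM per kb in NaCl, against 129, 127 and 131 in KCl. Alpha RNA thus exceeded beta RNA 2.79 ± 0.103 times in wild-type NaCl and 1.80 ± 0.0261 times in wild-type KCl, and 1.72 ± 0.121 and 1.48 ± 0.164 times in pmk-1 NaCl and pmk-1 KCl. These sums are descriptions, with no test.

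nkb-3 took part of the beta difference in wild type. Its share of the beta level was 35.5 ± 2.79% in wild-type NaCl, against 23.9 ± 2.26% in wild-type KCl. In the mutant the shares were 25.5 ± 7.26% in NaCl and 27.5 ± 9.24% in KCl, with the first libraries at 33.9% and 38.2%. nkb-1 held the rest but for nkb-2, which had 7.11 ± 5.23% in pmk-1 NaCl and 5.55 ± 2.77% in pmk-1 KCl, and at most 0.585% in any wild-type library.

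The genes most like each member were taken by Pearson correlation of log2(CPM + 1) over the 12 libraries among 9368 genes with a mean of at least 5 CPM. The libraries share strain, salt and replicate number, so a high r is a description. For catp-3 they were nlp-33, an epidermal antimicrobial peptide gene (r = 0.972), the cytochrome P450 gene cyp-33C8 (0.945) and the fatty acid amide hydrolase gene faah-2 (0.944). For catp-1 they were the inositol polyphosphate multikinase gene ipmk-1 (0.945), the TWIK-family potassium channel gene twk-34 (0.918) and the thioester-protein gene tep-1 (0.911). For eat-6 they were H34I24.2 (0.961), R08E3.1 (0.944) and the troponin T gene tnt-3 (0.935). For nkb-1 they were the saposin-like gene spp-23 (0.952), abhd-5.2 (0.937) and vha-13, a subunit of the vacuolar proton pump (0.926), and for nkb-3 brp-1 (0.952), the tyrosinase gene tyr-4 (0.918) and gon-2, a TRPM-family channel gene (0.914). catp-4 was most like Y69A2AR.19, T22C1.8 and T08B6.4 (0.999, 0.998 and 0.997), and nkb-2 most like T05C12.1, H05L14.1 and K07A1.5 (0.998 each).

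Other cation transport genes were counted from the lists of transporters drawn up for this comparison. The V-type ATPase, the proton pump of intracellular and apical membranes, has 21 listed subunit genes, all tested. In pmk-1 12 of them rose in NaCl against KCl and 0 fell, with a median log2 of 0.56 against -0.01 over all genes and 2.33% of all genes called higher. Examples are vha-11 (0.75 ± 0.10), vha-13 (0.73 ± 0.12), vha-12 (0.96 ± 0.16) and vha-10 (0.58 ± 0.10), with edgeR adjusted p from 0.00285 to 0.00985. The ribosomal RNA share of counts was 3.52 to 4.997% in pmk-1 NaCl, against 0.605 to 3.26% in pmk-1 KCl, and its part in this was not tested. In wild type none of the 21 passed (0 in edgeR and 0 in DESeq2), and the median was 0.20. At an unadjusted p under 0.05 there were 5, against 570 of all 13353 genes. The difference between the genotypes was not called for any of the 21 (interaction test, 0 in edgeR and 0 in DESeq2, median log2 0.33), so a response of the mutant alone was not shown. In that test 10 had an unadjusted p under 0.05, against 669 of all 13353 genes. Between the strains 7 of the 21 were higher in pmk-1 in NaCl, where 16.7% of all genes were, among them vha-17 (0.44 ± 0.10, edgeR adjusted p = 0.00972). In KCl edgeR and DESeq2 called 0, with an unadjusted p under 0.05 for 1, against 5120 of all 13353 genes. Without the first replicates 3 of the 21 were lower in pmk-1 in KCl, where 1922 of all 13191 genes tested were called lower. The pump members tested in the same pmk-1 comparison had 1 call, catp-3.

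Of 16 other P-type ATPases, the enzyme class to which the pump alpha subunits belong, 15 were tested. Between the salts edgeR called 0 in either genotype, and DESeq2 called 1 in pmk-1 and 0 in wild type (4.97% and 0.989% of all genes). At an unadjusted p under 0.05 there were 2 in pmk-1 and 1 in wild type, against 1792 and 570 of all 13353 genes. The plasma membrane calcium ATPase gene mca-2 stood in each of those counts other than 0, with log2 values of 1.07 ± 0.31 in pmk-1 and 0.97 ± 0.31 in wild type (edgeR adjusted p = 0.111 and 0.520). The other gene in pmk-1 was tat-4, at -0.21 ± 0.09 (edgeR adjusted p = 0.359). Under blocking on replicate number mca-2 passed in both (edgeR adjusted p = 0.00746 and 0.0273). The phospholipid-transporting ATPase gene tat-2 was higher in pmk-1 in NaCl (1.58 ± 0.40, edgeR adjusted p = 0.0148) and in KCl (1.76 ± 0.40, 0.0103), as was tat-4 in KCl (0.31 ± 0.09, 0.0325). That was 1 of 15 in NaCl and 2 of 15 in KCl, where 16.7% and 15.2% of all genes were called higher.

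Of 7 cation-chloride cotransporter genes and their kinases, edgeR and DESeq2 called 0 between the salts in either genotype, and 0 had an unadjusted p under 0.05. In pmk-1 against wild type the kinase gene sgk-1 was higher in NaCl (0.74 ± 0.23, edgeR adjusted p = 0.0354) and in KCl (0.75 ± 0.23, 0.0366). That was 1 of 7 in each salt, where 16.7% and 15.2% of all genes were called higher. Without the first replicates sgk-1 did not pass in KCl. Sodium-calcium exchangers spend the sodium gradient that the pump makes, and 8 of 10 were tested. Between the salts edgeR and DESeq2 called 0 in either genotype. An unadjusted p under 0.05 was had by ncx-3 in pmk-1 (0.77 ± 0.33, edgeR adjusted p = 0.328) and by 1 gene in wild type, ncx-6 (-1.14 ± 0.51, edgeR adjusted p = 1.0). That was 1 of 8 in each genotype, against 1792 (pmk-1) and 570 (wild type) of all 13353 genes. ncx-1 was higher in pmk-1 in NaCl (1.502 ± 0.453, edgeR adjusted p = 0.0307) and in KCl (1.61 ± 0.45, 0.0245), ncx-7 in NaCl (2.21 ± 0.62, 0.0230) and ncx-2 in KCl (1.75 ± 0.46, 0.0190). These were 2 of 8 in each salt, against the same 16.7% and 15.2% of all genes.

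**Figure D5:**
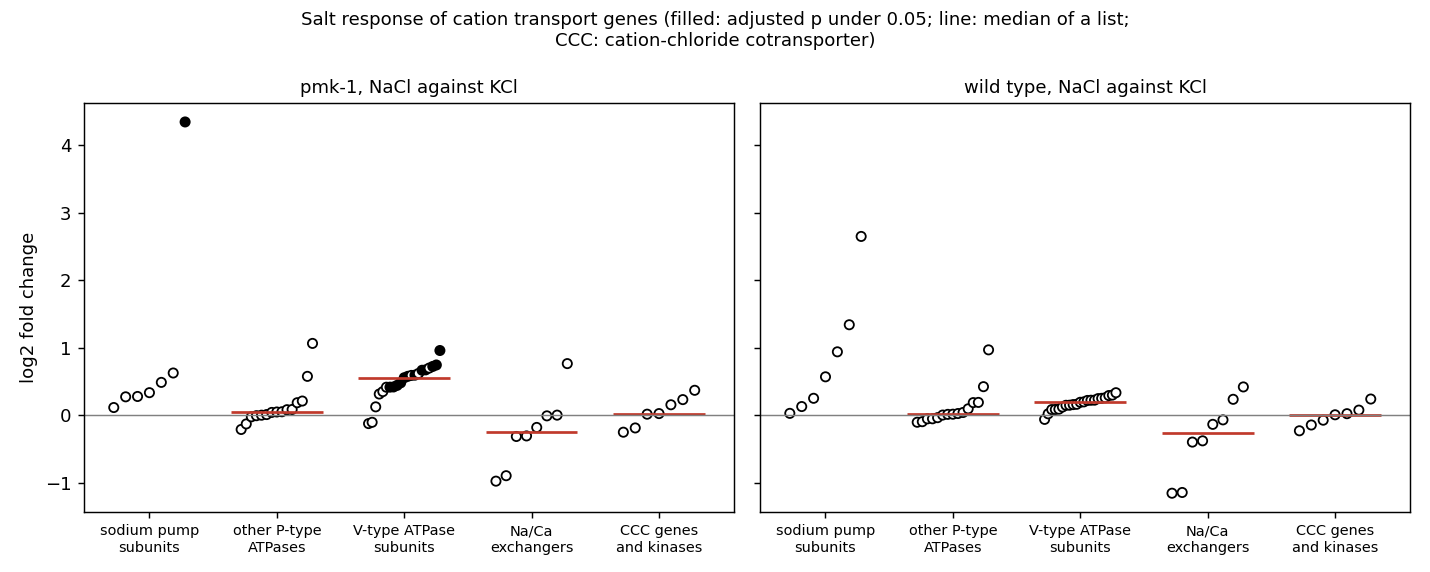
Log2 fold change of each gene tested between NaCl and KCl in pmk-1 (left) and wild type (right), by gene list, with filled points at an edgeR adjusted p under 0.05 and lines at the median of each list other than the pump genes. catp-3 is the highest point in each panel (4.34 and 2.65), and the median of the V-type ATPase list lies above 0 in both, with 12 of 21 genes called in pmk-1 and 0 in wild type, and 0 called for the difference between the genotypes.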

How the data were processed

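RNA of whole animals was sequenced as paired-end libraries, and the authors deposited 1 table of expected counts per gene and library, whole numbers in each cell. The submitters' processing notes name DESeq2 1.40.2, R 4.3.1, RSEM 1.3.3 and STAR 2.7.1a. What each tool did, the genome build and the strandedness were not given in the sources used here. Gene names, lengths and positions came from Ensembl release 115 of WBcel235, matched for 46817 of 46904 genes.

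The 13353 genes that pass filterByExpr entered edgeR 4.0.16 (R 4.3.3), with TMM size factors and 1 mean per group over all 12 libraries. Calls are at a quasi-likelihood Benjamini-Hochberg adjusted p under 0.05 over all genes tested. A standard error is the log2 fold change divided by the square root of F. Nothing in the labels says that replicates came from separate cultures beyond their being biological replicates. Replicate pairs differed by more than sampling noise (chi-square per degree of freedom 4.88 to 69.8). Standard errors and SDs include the spread between replicates, while the floors for a count of 0 cover counting error only.

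The members, lists, comparisons and alternatives were chosen with earlier results of these data known. All 8 members were named in each comparison, list genes when they passed (up to 4 per list, by smallest adjusted p), and 3 genes most like each tested member. mca-2, ncx-3, ncx-6 and, between salts, tat-4 were named after their values were seen. A motif search in promoters was set out and not run, since no sequences were used here. DESeq2 1.42.0 served as an alternative. The edgeR script was tested on simulated data.

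Replicate numbers were taken to pair libraries where same-numbered libraries deviated together from their group means over genes, with all 3 correlations over 0.1. The main fit has no block for such pairs, so pairing enters only in the fits blocked on replicate number. For NaCl against KCl the correlations of replicates 1, 2 and 3 were 0.639, 0.209 and 0.542 among wild-type libraries and 0.753, 0.463 and 0.579 among mutant libraries, and they were 0.398, 0.224 and 0.258 between genotypes in NaCl. Replicates 2 and 3 were not set apart by number: NaCl replicate 2 with KCl replicate 3 gave 0.227 in wild type and 0.559 in the mutant, and NaCl replicate 3 with KCl replicate 2 gave 0.467 in the mutant.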

Additional observations from a re-analysis of the deposited data

How the results depend on the processing

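All 8 calls on members kept their direction under every alternative run, but not all stayed calls. Those of catp-3 between the salts in pmk-1, catp-1 in NaCl and nkb-2 in KCl were each lost in at least 1 fit. For catp-4 and nkb-2, which passed the low-count filter only through the pmk-1 libraries, a turn of sign could hardly occur. The alternatives were other size factors (RLE), DESeq2, no filter, a filter of 1 CPM in 3 libraries, the replicate block, the groups compared alone, no first replicates, and each library left out. Shares in brackets are of all genes tested in the same fit. The number of members called between the salts in wild type moved from 0 to 2 with the replicate block (0.981%). It was 3 of 6 tested with the groups compared alone (1.32%), 3 without the first replicates (1.02%) and 1 in DESeq2 (0.989%). With 1 library left out it lay between 0 and 2 (0% to 0.575%). In pmk-1 it moved from 1 to 0 with the groups compared alone (0.382%), and lay between 0 and 2 with 1 library left out (0.807% to 4.06%). Between genotypes it was 3 to 5 in NaCl and 2 to 3 in KCl over all alternatives, with catp-4 and nkb-2 among the members counted. Calls over all genes were many there and shifted with the fit. In NaCl they ran from 1701 of 13884 genes (without wild-type NaCl replicate 2) to 5344 of 13353 (replicate block). In KCl they ran from 1390 of 13875 genes (without wild-type KCl replicate 3) to 4818 of 13353 (replicate block). The interaction went from 0 to 2 without the first replicates (0.735%).

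Signs turned only for values that had not passed. Without the first replicates, eat-6 was -0.10 (log2) in NaCl and -0.22 in KCl between genotypes, nkb-1 -0.0048 in NaCl and nkb-3 -0.0892 in KCl, and in the interaction catp-4 was 0.38 and nkb-2 -2.76. The eat-6 interaction was -0.00998 with RLE size factors and -0.00999 in DESeq2, and that of catp-4 0.0169 with the replicate block. With 1 library left out, log2 values in wild type between salts ran from -0.36 to 1.11 for catp-4 and from -1.54 to 4.64 for nkb-2. In pmk-1 they ran from -0.0697 to 0.53 for catp-1, -0.74 to 1.77 for catp-4, -0.52 to 1.47 for nkb-2 and -0.43 to 0.76 for nkb-3. Between genotypes they ran from -0.10 to 0.12 for eat-6 in NaCl, and in KCl from -0.28 to 0.20 for eat-6, -0.0156 to 0.35 for catp-1 and -0.20 to 0.69 for nkb-3. In the interaction they ran from -0.18 to 0.34 for eat-6, -1.32 to 1.205 for catp-4 and -4.01 to 2.17 for nkb-2. For nkb-1 between genotypes in NaCl they stayed above 0, from 0.0106 to 0.0999. The causes were not tested. The nkb-2 values of 4.64, -2.76 and -4.01 come from fits that left wild-type KCl with no nkb-2 count. No finite fold exists there, so these values are not measured changes.

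Over all genes, the replicate block moved the calls between the salts from 25 to 131 (108 higher) in wild type and from 362 to 679 (533 higher) in pmk-1, and the groups compared alone gave 154 and 48. In KCl between genotypes the same-number correlations were 0.431, 0.075 and 0.315. There the block gave 3 member calls (36.1% of all genes), as without it (24.4%). Apart from catp-1 and catp-3 in wild type, the block changed no member call. Fewer than 30 counts per wild-type library limit catp-4 and nkb-2, and catp-2 cannot be judged at this depth.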
